A study of Mus musculus with 23 samples.

Results

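The luminal identity of PyMT mammary tumors was followed through 10 genes of 47643 gene identifiers measured: the luminal keratins Krt8, Krt18 and Krt19, the adhesion genes Epcam and Cdh1, the lineage factors Elf5, Gata3 and Foxa1, and the hormone receptors Esr1 and Pgr. The genes were taken by symbol for their known roles, with earlier results of these data known. All 10 had a mean of at least 5 normalized counts and entered every test. PyMT mice carry the polyoma virus middle T oncogene, which drives tumors in the mammary glands, and the animals were female and bred into a C57BL/6 background. All 5 groups carried this transgene, and the IL-38 KO animals lacked IL-38, a cytokine of the IL-1 family, in addition. In the neutralization experiment, PyMT WT mice received a human IgG1 isotype control (n = 5) or an anti-IL-38 antibody (n = 6) once a week for 5 weeks, starting when the first tumor had reached a diameter of 0.6 cm. In the second experiment, PyMT WT mice received hamster IgG (n = 4), and PyMT IL-38 KO mice received either the same IgG (n = 4) or an antibody to the γδ T cell receptor (n = 4), once a week for 5 weeks from an age of 13 weeks. RNA was taken from whole dissociated tumors, so that epithelial, stromal and immune RNA was read together, and neither the age at harvest in the neutralization experiment nor the promoter of the transgene is given in the sources used here. In such bulk samples, fewer cells of a type and less RNA per cell cannot be told apart. The p-values measure the spread between libraries, since the labels number the samples but do not describe their origin further.

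Luminal cells line the ducts and alveoli of the mammary gland, inside a layer of basal, myoepithelial cells. Keratins 8, 18 and 19 build the intermediate filaments of this simple epithelium, while the cell adhesion molecules encoded by Epcam and Cdh1 join neighboring cells. GATA3 maintains the luminal lineage as a whole, ELF5 directs its secretory, alveolar branch, and FOXA1 opens chromatin for the estrogen receptor in the hormone-sensing branch, in which estrogen induces the progesterone receptor.

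The libraries held 10138353 to 15879164 reads in 18 of the 23 cases. The other 5, which were KO_IgG replicate 4 and all 4 anti-γδTCR libraries, held 6273049 to 8794202 reads and stood apart in composition. In these 5, pseudogenes took 1.31 to 1.98% of reads against 0.0943 to 0.191%, and Lyz2, a lysozyme gene of macrophages, was at 82.6 to 494 CPM (reads scaled by the library total) against 5801 to 16563 CPM. The anti-γδTCR differences of the members are therefore also given against KO_IgG replicate 4 alone, and their knockout differences also without it. The results for the other gene lists and cell markers are given only with it. In the pooled and interaction comparisons it was left out only as part of leaving out each library in turn. Il1f10, which encodes IL-38, was at 0 reads in all 23 libraries, so that the counts did not check the genotype labels. With 3 counts as the limit that a count of 0 allows, this leaves up to 0.189 to 0.478 CPM, for counting error only.

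Promoter windows of 5 members are shown because the keratin pair sits side by side in the genome and the lineage factors are the regulators of the set. The windows are the 250 bases upstream of the RefSeq transcription start in GRCm38.p6, and 8 of the 10 members had an entry in the table. Capitals mark exact matches, on either strand, to letters known from binding motifs: AGATAA from the motif of GATA3 and its relatives, TGTTTAC from that of forkhead factors such as FOXA1, CCGGAAG from that of ETS factors such as ELF5, AGGTCA from that of the estrogen receptor, and TATAAA from the box where transcription begins. The windows lie at chr15:102004343-102004592, minus strand for Krt8, at chr15:102027966-102028215, plus strand for Krt18, at chr12:57546112-57546361, minus strand for Foxa1, at chr2:103411848-103412097, plus strand for the first of both Elf5 starts, and at chr2:9878601-9878850, minus strand for Gata3.

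Krt8: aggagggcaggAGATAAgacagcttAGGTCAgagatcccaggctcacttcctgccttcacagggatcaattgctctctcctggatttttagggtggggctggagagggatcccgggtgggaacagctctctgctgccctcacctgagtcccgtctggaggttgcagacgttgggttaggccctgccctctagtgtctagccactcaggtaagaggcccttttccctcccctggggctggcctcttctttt
Krt18: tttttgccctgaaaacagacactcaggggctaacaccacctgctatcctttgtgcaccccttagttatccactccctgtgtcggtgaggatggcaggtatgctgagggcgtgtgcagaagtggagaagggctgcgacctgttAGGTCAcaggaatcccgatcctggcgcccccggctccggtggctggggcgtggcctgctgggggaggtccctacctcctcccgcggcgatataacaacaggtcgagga
Foxa1: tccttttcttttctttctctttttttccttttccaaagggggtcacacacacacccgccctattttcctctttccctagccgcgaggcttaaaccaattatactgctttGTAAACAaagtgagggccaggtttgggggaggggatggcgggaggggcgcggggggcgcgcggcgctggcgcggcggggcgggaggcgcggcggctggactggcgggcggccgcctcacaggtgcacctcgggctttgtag
Elf5: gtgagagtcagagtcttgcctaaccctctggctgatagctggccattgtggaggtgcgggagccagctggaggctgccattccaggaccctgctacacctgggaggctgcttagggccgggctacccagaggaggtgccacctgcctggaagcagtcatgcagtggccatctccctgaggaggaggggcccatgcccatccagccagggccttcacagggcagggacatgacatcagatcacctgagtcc
Gata3: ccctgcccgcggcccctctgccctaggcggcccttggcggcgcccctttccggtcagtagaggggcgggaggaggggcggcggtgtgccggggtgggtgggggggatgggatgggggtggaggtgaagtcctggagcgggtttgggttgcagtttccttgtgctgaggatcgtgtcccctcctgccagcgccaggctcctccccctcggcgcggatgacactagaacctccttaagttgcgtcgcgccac

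The Krt8 and Krt18 starts were 23874 bases apart on chromosome 15, and the genes are transcribed away from each other. The Krt8 window held AGATAA and AGGTCA, the Krt18 window AGGTCA and the Foxa1 window a forkhead match, whereas these letters were not in the Elf5 and Gata3 windows shown. Of 32851 promoter windows of the same build, 9.99% held AGATAA, 3.17% TGTTTAC, 6.91% CCGGAAG, 14% AGGTCA and 12.4% TATAAA. These matches describe letters only. No binding was measured.

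All 10 members were detected in every library, down to 20 reads of Esr1 in isotype replicate 5, so that the luminal genes were present in all 5 groups. Krt8 ranged from 56.8 to 328 CPM over the 23 libraries, and its group medians were 118 in the isotype group, 186 with anti-IL-38, 133 in WT with IgG, 116 in KO with IgG and 128 in KO with anti-γδTCR. Krt18, its filament partner, ranged from 141 to 553 CPM, with medians of 189, 404, 399.6, 317 and 417 CPM in the same order of groups. For Krt19 the medians were 116, 216, 133, 82.8 and 142 CPM. The KO_IgG group was thus lowest in Krt19, and the anti-IL-38 group highest, yet also widest, at 36.3 to 667 CPM.

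Of all members Cdh1 varied least. Cdh1, which encodes E-cadherin, had medians of 738, 904, 839.8, 1196 and 1218 CPM, in the same order of groups, and a 2.05-fold range over all libraries. Epcam had medians of 537, 870.0, 780.2, 901 and 986 CPM. Pgr varied most. The highest library exceeded the lowest 5.13-fold for Elf5, 18.4-fold for Krt19, 6.78-fold for Gata3, 19.8-fold for Foxa1, 20.5-fold for Esr1 and 59.7-fold for Pgr. In the isotype, anti-IL-38, WT_IgG, KO_IgG and anti-γδTCR groups the medians were 7.87, 13.8, 11.8, 8.57 and 11.1 CPM for Esr1 and 2.24, 30.9, 25.2, 6.48 and 24.8 CPM for Pgr. For the lineage factors they were 67.9, 76.3, 115, 121 and 114 CPM for Elf5, 252, 283, 387, 387 and 397 CPM for Gata3, and 4.85, 7.61, 6.85, 5.59 and 10.1 CPM for Foxa1. Other genes that share the Gata3 locus had 0 to 66 reads, and the pseudogene Krt8-ps had 0 to 2 reads. When the groups were ordered by median for each gene, 1 of 40 neighboring pairs did not overlap. It was Cdh1 in the anti-IL-38 group, with a highest value of 1035 CPM, and the KO_IgG group, with a lowest value of 1040.3 CPM. Those groups belong to different experiments, and the share of such pairs over all genes was not determined. All other neighbors in each order overlapped.

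**Figure D1:**
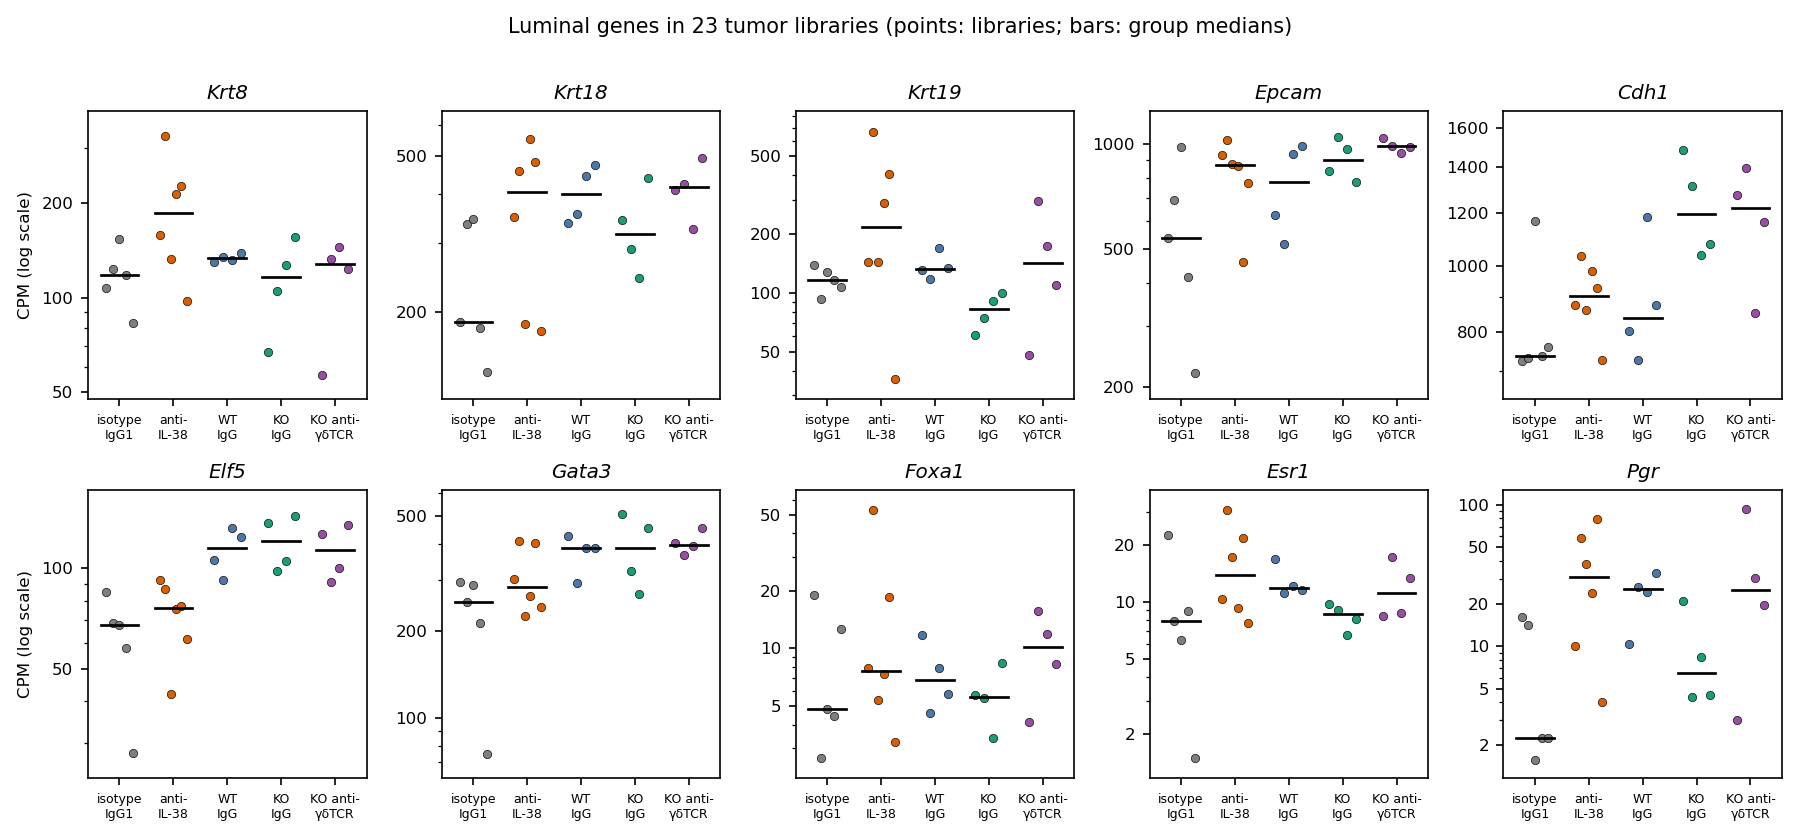
Level of each of the 10 luminal genes in CPM (log axis) in every library, by group; each point is a library and each bar the group median. All members were detected in every library, and the Pgr libraries of a group spread most widely, from 3.0 to 93.8 CPM with anti-γδTCR.

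To ask whether acute IL-38 neutralization went along with altered luminal expression, anti-IL-38 tumors were compared with isotype controls. All 10 members had a higher mean log2 level with anti-IL-38, by 0.20 for Cdh1 to 2.42 for Pgr, but the groups overlapped for each gene and none passed the test. Cdh1 was at −0.11 relative to other epithelial genes, a scaling that subtracts the mean log2 level of 19 epithelial genes outside the set from each library. The test was limma on log2(normalized count + 1) over all 16002 genes, where a normalized count is the read count divided by a size factor of the library, with Benjamini-Hochberg adjusted p under 0.05 as a call. It called 0 of 10 members and 0% of all genes, and at an unadjusted p under 0.05 there were 2 of 10 members against 10.5% of all genes. edgeR called 0 of 10 members and 0% of genes, with 3 members against 10.7% of genes at an unadjusted p under 0.05, and DESeq2 called 0 of 10 members and 0.47% of genes. The median difference was 0.66 over the members and 0.00188 over all genes, of which 50.2% were higher. With the epithelial scaling the medians over the members were 0.36 with anti-IL-38, −0.50 in the knockout, 0.26 with anti-γδTCR and 0.043 in the pooled comparison, where the medians of all genes shifted to −0.30, −0.21, −0.14 and −0.26, and it called no member, beside 0%, 0.0181%, 0% and 0% of genes. At an unadjusted limma p under 0.05 were then 1, 5, 0 and 0 of 10 members, in the same order of comparisons. Among all genes it was 2275 of 16002, 2844 of 16563, 3699 of 16481 and 3941 of 16352.

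Pgr, the progesterone receptor, had the largest difference. Its normalized counts were 194, 179, 20.5, 27.6 and 28.6 in the 5 isotype libraries. They were 51.9, 433 and 988 (lowest, median and highest) in the 6 anti-IL-38 libraries, and 4 of 6 lay above every control. The isotype values fell into a higher pair and a lower set of 3, and the lowest anti-IL-38 tumor lay between them. The difference had a 95% interval of 0.70 to 4.14 (log2 difference 2.42 ± 0.80 (SE), limma adjusted p = 0.417, exact permutation p = 0.0346, the smallest possible being 0.00216). Esr1, the estrogen receptor, had normalized counts of 275, 100.2, 82.0, 111 and 19.1 in the isotype group. With anti-IL-38 they were 98.8, 190.4 and 398 (lowest, median and highest) in the 6 anti-IL-38 libraries (log2 difference 1.09 ± 0.55 (SE), limma adjusted p = 0.488, exact permutation p = 0.119). Both receptors overlapped between the groups.

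Among the keratins, Krt8 had 1304, 1570.3, 2009.9, 1452 and 1064 normalized counts in the isotype libraries. They were 1252, 2387 and 4288 (lowest, median and highest) in the 6 anti-IL-38 libraries, of which 3 lay above every control (log2 difference 0.69 ± 0.26 (SE), limma adjusted p = 0.425, exact permutation p = 0.0563). Krt19 had 1684, 1192, 1669.6, 1428 and 1376 normalized counts in the isotype libraries, and 466, 2929 and 8728 (lowest, median and highest) in the 6 anti-IL-38 libraries. It differed by 0.82 ± 0.55, and Krt18 by 0.64 ± 0.33. Krt19 had 5 of 6 anti-IL-38 libraries above every control and 1 below every control (exact permutation p = 0.245, n = 6 and 5). Of the adhesion genes, Epcam had 6527, 8816, 12801, 5129 and 2811 normalized counts in the isotype libraries and 5699, 11465 and 13431 (lowest, median and highest) in the 6 anti-IL-38 libraries. It differed by 0.70 ± 0.33 (limma adjusted p = 0.476) and Cdh1 by 0.20 ± 0.16. Of the lineage factors, Gata3 differed by 0.61 ± 0.30, Foxa1 by 0.62 ± 0.65 and Elf5 by 0.33 ± 0.25. No member had its whole anti-IL-38 group above the isotype group, beside 0.4% of all genes that did.

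**Figure D2:**
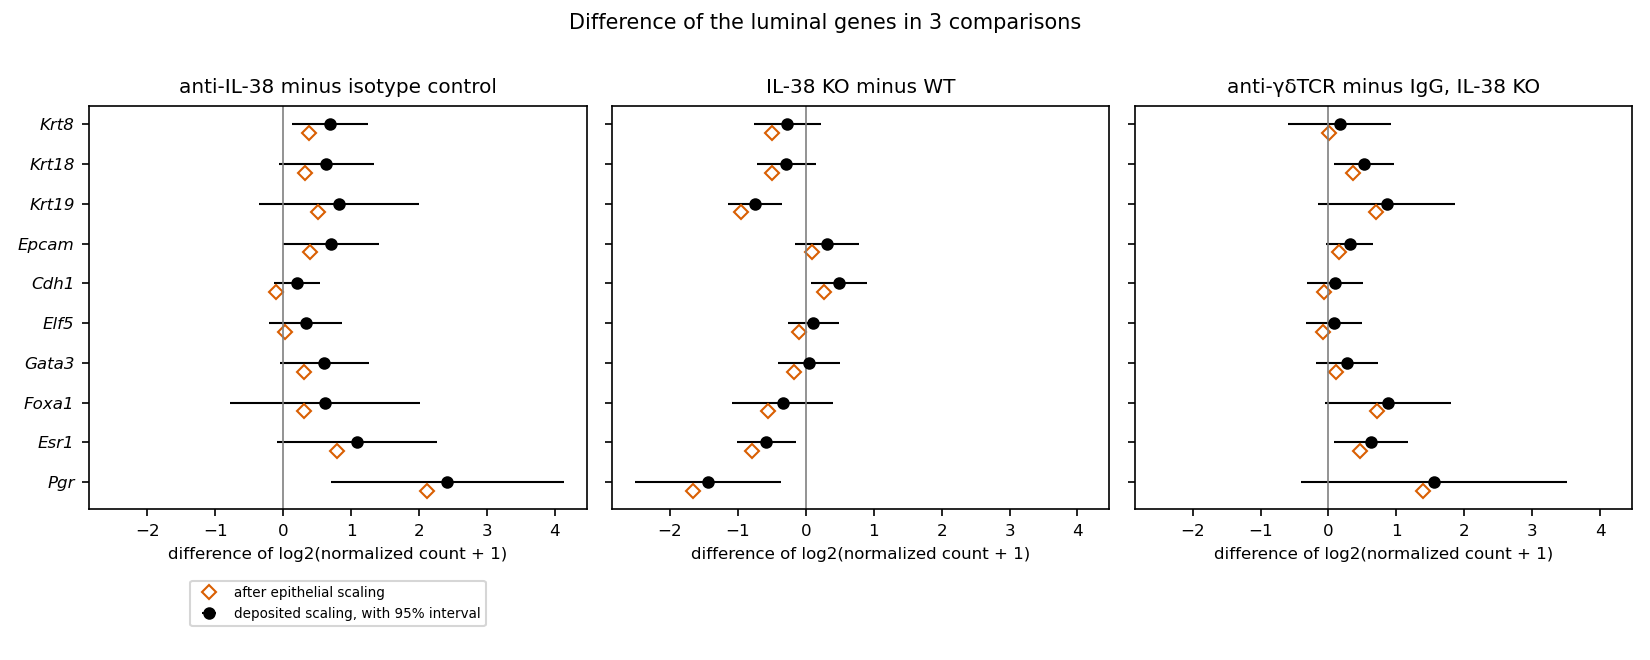
Log2 difference in normalized count of each luminal gene, as a difference of log2(normalized count + 1), in 3 comparisons. Filled points are the deposited scaling with 95% intervals, open diamonds the values relative to other epithelial genes, and the gray line marks 0. In the anti-IL-38 comparison and in the anti-γδTCR comparison all 10 estimates lie above 0, and in the knockout comparison 6 of 10 lie below it, which are the 3 keratins, Foxa1, Esr1 and Pgr.

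High and low values of several members fell in the same tumors. Anti-IL-38 replicate 2 was the highest of all 23 libraries in Krt8, Krt19, Foxa1 and Esr1, and the highest of its group in 7 of 10 members. Isotype replicate 5 was the lowest of all 23 in Krt18, Epcam, Elf5, Gata3 and Esr1. Without it, the anti-IL-38 difference was 0.56 for Esr1, 0.26 for Gata3, 0.077 for Elf5, 0.41 for Epcam and 0.47 for Krt18. Markers of basal and myoepithelial cells, such as Acta2, were also unequal, with a summed level of 2657 CPM in anti-IL-38 replicate 2 and 1762 CPM in replicate 5, against 118 to 649 CPM in the other 4 and 144 to 557 CPM in the isotype group. In an analysis chosen after seeing the data, both tumors were left out, and Krt19 then differed by 0.14, Foxa1 by −0.18, Krt8 by 0.40, Esr1 by 0.69 and Pgr by 1.68 on the log2 scale. Foxa1 thus reversed. Pgr kept its direction, and its limma adjusted p was 0.556. The part of the basal markers in the luminal values was not tested.

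**Figure D3:**
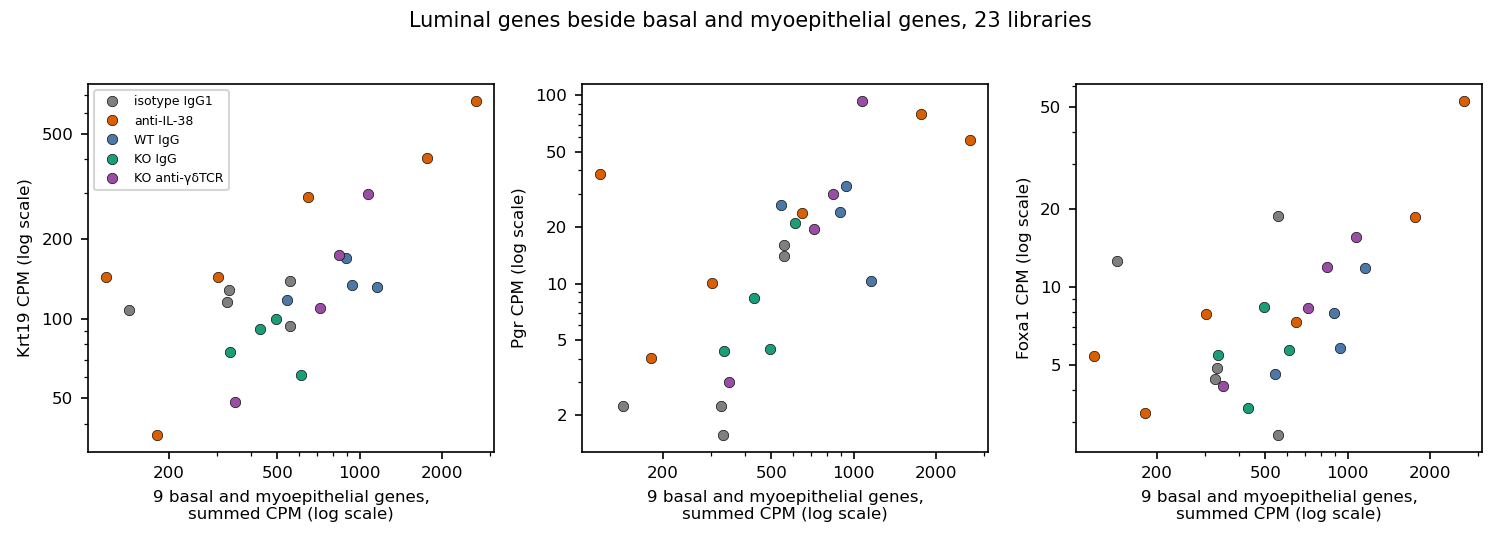
Levels of Krt19, Pgr and Foxa1 (vertical axis, CPM) against the summed level of 9 basal and myoepithelial markers (horizontal axis, CPM), by library and group, on log axes. Anti-IL-38 replicate 2, at 2657 CPM, lies furthest to the right.

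To ask about a lifelong loss of IL-38, KO tumors were compared with WT tumors, both given IgG. Krt19, Esr1 and Pgr were lower in KO and Cdh1 was higher at an unadjusted p under 0.05, in opposite directions within the luminal set, and none passed the test by limma. limma called 0 of 10 members and 0.00604% of 16563 genes, which was the 1 gene Gm10093, and 4 of 10 members against 12.1% of all genes were at an unadjusted p under 0.05. DESeq2 called Krt19 alone among the members (log2 difference −0.72, adjusted p = 0.0232), beside 2.26% of all genes, and edgeR called 0 of 10 members and 0% of genes, with 4 members against 13.4% of genes at an unadjusted p under 0.05. The median over the members was −0.28, with 4 of 10 higher, and 0.00532 over all genes. Relative to other epithelial genes, 5 of 10 members were at an unadjusted limma p under 0.05, against 2844 of 16563 genes. These 5 were Krt8, Krt18, Krt19, Esr1 and Pgr, all lower in KO, and none was called. Krt19 was then at −0.96 ± 0.16 (SE, limma adjusted p = 0.119).

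Krt19, the keratin of simple and ductal epithelium, had 1504, 1415, 1969 and 1559 normalized counts in WT. In KO it had 723, 871, 1092 and 1213, so that every KO library was below every WT library (log2 difference −0.74 ± 0.18 (SE), limma adjusted p = 0.21, exact permutation p = 0.0286, which is the smallest p that 4 against 4 allows). The other keratins differed by −0.27 ± 0.23 for Krt8 and −0.29 ± 0.20 for Krt18. Esr1 had 192, 135, 141 and 133 normalized counts in WT and 115, 105, 80.0 and 98.7 in KO. Its groups did not overlap either (log2 difference −0.58 ± 0.20 (SE), limma adjusted p = 0.314, exact permutation p = 0.0286). Among all genes, 3.41% had KO wholly below WT, against 2 of 10 members, Krt19 and Esr1.

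Pgr had 119, 317, 281 and 381 normalized counts in WT and 247, 51.3, 101 and 55.0 in KO, with 3 of 4 KO tumors below every WT tumor (log2 difference −1.45 ± 0.49 (SE), limma adjusted p = 0.31, exact permutation p = 0.0571). KO_IgG replicate 1 was the exception and lay among the WT values. Cdh1 went the other way, at 9204, 8781, 13789 and 10162 in WT and 17553, 15329.5, 12474 and 13099.5 in KO (log2 difference 0.49 ± 0.19 (SE), limma adjusted p = 0.351, exact permutation p = 0.0857). Epcam differed by 0.31 ± 0.22, Foxa1 by −0.34 ± 0.34, Elf5 by 0.11 ± 0.17 and Gata3 by 0.047 ± 0.21, and relative to other epithelial genes Elf5 and Gata3 were at −0.11 and −0.17. Without KO_IgG replicate 4, Krt19 differed by −0.86 (limma adjusted p = 0.0923), Esr1 by −0.58, Pgr by −1.20 and Cdh1 by 0.54. Krt8 then differed by −0.46, Krt18 by −0.45, Foxa1 by −0.55, Epcam by 0.37 and Elf5 by 0.013. Gata3 was then at −0.053 and thus reversed. Of the basal markers, 8 of 9 were lower in KO. Their sum was 544 to 1159.7 CPM in WT and 336 to 608 CPM in KO. None of these markers was at 0 in a whole group. Their part in the luminal values was not tested.

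To ask what blockade of the γδ T cell receptor changed in the absence of IL-38, KO tumors given anti-γδTCR were compared with KO tumors given IgG. All 10 members had a higher mean log2 level with anti-γδTCR, by 0.080 for Elf5 to 1.56 for Pgr, and none passed the test. Against KO_IgG replicate 4 alone, 3 of the 10 were lower. Cdh1 and Elf5 were at −0.061 and −0.080 relative to other epithelial genes. limma called 0 of 10 members and 0% of 16481 genes, and at an unadjusted p under 0.05 there were 2 of 10 members against 21.7% of all genes. edgeR called 0 of 10 members and 0% of genes, with 5 members against 18.7% of genes at an unadjusted p under 0.05, and DESeq2 called 0 of 10 members and 6.49% of genes. The KO libraries given IgG are also the KO arm of the genotype comparison, so that both share these 4 libraries, and the levels here were normalized in a separate table.

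Esr1 had 86.4, 79.8, 61.8 and 77.3 normalized counts with IgG and 87.6, 169, 99.5 and 129.8 with anti-γδTCR, without overlap (log2 difference 0.63 ± 0.24 (SE), limma adjusted p = 0.163, exact permutation p = 0.0286). Epcam had 7425, 9247, 8939 and 7390.2 with IgG and 10875, 9682, 10729 and 9523 with anti-γδTCR, again without overlap (log2 difference 0.31 ± 0.16 (SE), limma adjusted p = 0.284, exact permutation p = 0.0286). Among all genes 4.57% had the anti-γδTCR group wholly above the IgG group, against these 2 of 10 members. Krt18 differed by 0.52 ± 0.20 (limma adjusted p = 0.149), and without KO_IgG replicate 4 by 0.69, at an adjusted p of 0.0115, in a fit that called 14.3% of 16480 genes. In that fit the controls no longer held any library of low lysozyme and high pseudogene content. Against KO_IgG replicate 4 alone, the control most like these libraries in composition, which allows no test, Krt8, Elf5 and Gata3 were lower, at −0.42, −0.25 and −0.056 on the log2 scale, and no anti-γδTCR library lay above it for Elf5. Krt18 was at 0.010, Cdh1 at 0.21, Pgr at 2.25, Krt19 at 0.48, Foxa1 at 0.21, Epcam at 0.46 and Esr1 at 0.60, and all 4 anti-γδTCR libraries lay above it for Epcam and for Esr1.

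Pgr with anti-γδTCR had 31.4, 919, 342 and 189 normalized counts against 185, 38.9, 78.2 and 43.1 with IgG (log2 difference 1.56 ± 0.88 (SE), limma adjusted p = 0.345, exact permutation p = 0.257). Without anti-γδTCR replicate 2 the difference was 0.85, and without replicate 1 it was 2.46. Replicate 2 held the highest Pgr level of all 23 libraries, and its basal markers summed to 1069 CPM, the highest of its group. Krt19 differed by 0.85 ± 0.46, at 0.48 and 1.32 without these same libraries, and Foxa1 by 0.88 ± 0.42, whereas Krt8, Gata3, Cdh1 and Elf5 differed by 0.16, 0.27, 0.10 and 0.080. Macrophage markers were lower in the same libraries, with 7 of 8 lower and a sum of 833 to 1436 CPM against 1347 to 10546 CPM. Of the IgG controls, KO_IgG replicate 4 held the 1347 CPM, and replicates 1 to 3 held 7351 to 10546 CPM. None of these markers was at 0 in a whole group, and their part in the luminal values was not tested.

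**Figure D4:**
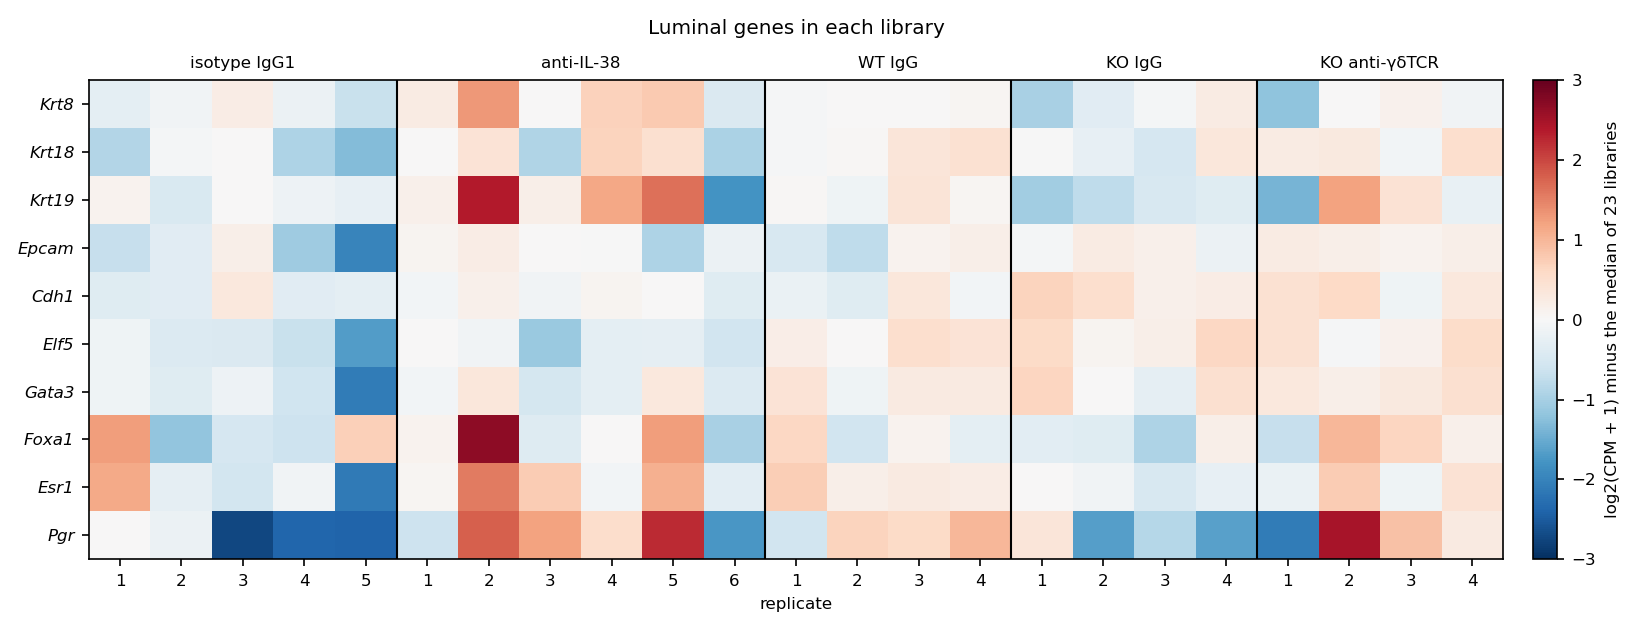
Level of each luminal gene in each of the 23 libraries as log2(CPM + 1) minus the median of that gene over all libraries, by color, with libraries in columns by group. Anti-IL-38 replicate 2 is high and isotype replicate 5 low across several members at once.

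IL-38 inhibition by antibody and by knockout was also pooled against both controls (n = 10 and 9). All 10 members had a positive log2 difference, with a median of 0.31. Krt18, Krt19, Elf5 and Foxa1 were, however, below 0 relative to other epithelial genes. The pooled sign did not hold in both arms, as 6 of 10 members were lower in the knockout. Pgr was at 2.42 with the antibody and −1.45 in the knockout, and Esr1 at 1.09 and −0.58. Of the 10 inhibited tumors, 3 lay above the control median for Esr1, 5 each for Pgr, Krt18 and Krt19, and 9 for Epcam. limma called 0 of 10 members and 0% of 16352 genes, edgeR 0 of 10 and 0.00612%, and DESeq2 0 of 10 and 0.429%. At an unadjusted p under 0.05 there were 2 of 10 members, against 10.5% of all genes, both of them adhesion genes, and 1 of 10 against 11.6% by edgeR. Cdh1 differed by 0.31 ± 0.13, with all 10 inhibited tumors above the control median (limma adjusted p = 0.41, exact permutation p = 0.0236). Epcam differed by 0.53 ± 0.23 (limma adjusted p = 0.426). These pooled p-values do not account for the experiment. The fit held no experiment term, and the permutation exchanged libraries across both experiments. With experiment as a term, limma called no member. Relative to other epithelial genes, Cdh1 was at 0.050 (limma unadjusted p = 0.735) and Epcam at 0.26 (unadjusted p = 0.157). No member was then at an unadjusted p under 0.05 in the pooled comparison, against 3941 of 16352 genes. Without anti-IL-38 replicates 2 and 5, Krt19 was at −0.30 and Foxa1 at −0.26, both reversed.

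The antibody and knockout effects were then set against each other by an interaction term over the 19 libraries. The antibody effect exceeded the knockout effect for 9 of 10 members, with Cdh1 as the exception at −0.29, and the difference was largest for Pgr, at 3.87 (95% interval 1.55 to 6.18, limma adjusted p = 0.525). It was 1.67 for Esr1 (adjusted p = 0.599), 1.56 for Krt19 (adjusted p = 0.626) and 0.96 for Krt8 (adjusted p = 0.59). limma called 0 of 10 members and 0.00612% of genes, edgeR 0 of 10 and 0%, and DESeq2 0 of 10 and 0.164%, while 4 of 10 members against 7.67% of genes were at an unadjusted p under 0.05, and 5 of 10 against 8.27% by edgeR. After epithelial scaling it was 5 of 10 members against 760 of 16352 genes by limma, with no member called. Both experiments differed in control antibody and in the start of treatment, so that the routes of inhibition and the experiments cannot be told apart.

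Other genes of the luminal program were taken from lists of known genes, and no gene of these lists or of the marker lists passed limma in any comparison. Of the hormone-sensing genes, downstream of or partnered with the receptors, 8 of 8, 1 of 8 and 7 of 8 of those tested were higher in the anti-IL-38, knockout and anti-γδTCR comparisons, with medians of 1.16, −0.39 and 0.53 on the log2 scale. Areg, the ligand of the EGF receptor through which estrogen drives duct growth, differed by 2.78 with anti-IL-38 (limma adjusted p = 0.326), and its group ranges were 0.751 to 15.4 CPM in the isotype and 10.3 to 42.1 CPM in the anti-IL-38 group. Wnt4, a progesterone-induced signal, differed by 2.30 (limma adjusted p = 0.373), and DESeq2 called it at an adjusted p of 0.0319. Cited1, a transcriptional coregulator of the estrogen receptor, differed by −1.26 in the knockout (limma adjusted p = 0.21), and DESeq2 called it at 0.0154. Side by side in the anti-IL-38, knockout and anti-γδTCR comparisons, Areg was at 2.78, −0.57 and 0.48, and Wnt4 at 2.30, −0.59 and 1.20.

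Of the alveolar genes, 8 of 10, 8 of 10 and 8 of 10 were higher in the same order of comparisons, with medians of 0.35, 0.16 and 0.26. Csn2, the milk protein beta-casein, was at −3.51 with anti-IL-38 (limma adjusted p = 0.432), Kit, a receptor of luminal progenitors, at 0.49 in the knockout, and Lcn2, the secreted lipocalin, at 0.49 in the pooled comparison. Of other epithelial genes, 15 of 19, 15 of 19 and 14 of 19 were higher, with medians of 0.19, 0.32 and 0.12. The keratin Krt7 was at −0.67 and the tight junction gene Cldn4 at 1.08 in the knockout (both limma adjusted p = 0.21), in opposite directions, and DESeq2 called both at adjusted p = 0.00627 and 0.00412, and Cldn7 was at 0.43 with anti-γδTCR. Of catenins and cadherin partners, 3 of 4, 3 of 4 and 2 of 4 were higher, with medians of 0.037, 0.11 and −0.13. Ctnnd1, which encodes p120-catenin, was at 1.05, 0.79 and −0.64, with adjusted p = 0.0712 in the last, where Ctnnb1 was at −0.35. Jup was at −0.093 in the knockout. Of the repressors of Cdh1, 3 of 5, 1 of 6 and 4 of 6 were higher, with medians of 0.20, −0.30 and 0.28. With anti-γδTCR, Zeb2 was at 0.63, Zeb1 at 0.47 and Snai2 at 0.67. In that comparison DESeq2 called 7 genes of these 5 lists, which were Prlr, Wnt4, Cited1, Krt7, Cldn7, Ctnnd1 and Zeb2, and none of the 10 members. These were 7 of 47 genes tested (14.9%), beside the 6.49% of all genes. In the knockout DESeq2 called 3 of 47 genes of these lists (6.38%), beside 2.26% of all genes. For anti-IL-38 it called 1 of 46 (2.17%), beside 0.47%.

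The markers of other cell types differed between these libraries as well. In the anti-IL-38, knockout and anti-γδTCR comparisons, 7 of 9, 1 of 9 and 9 of 9 basal and myoepithelial markers were higher, with medians of 0.64, −0.43 and 0.67. In the knockout the contractile genes Acta2, Cnn1 and Mylk were at −1.01, −1.24 and −1.04. DESeq2 called all 3, of the 9 basal markers tested, beside 2.26% of all genes. For fibroblast markers it was 8 of 8, 6 of 8 and 6 of 8, with medians of 0.55, 0.10 and 0.17. Pdgfrb and Pdgfra were at 0.71 and 0.64 with anti-IL-38 and Dcn at 0.65 with anti-γδTCR. For adipocyte markers it was 5 of 8, 0 of 8 and 3 of 8, with medians of 0.29, −1.09 and −0.037. Fabp4, Cidec and Plin4 were at −1.05, −1.48 and −1.22 in the knockout, where the sum over the list was 57.8 to 297 CPM against 322 to 448 CPM in WT. For macrophage markers it was 2 of 8, 0 of 8 and 1 of 8, with medians of −0.21, −0.57 and −1.11. With anti-γδTCR, Lyz2 was at −4.32, Cd68 at −2.16 and Adgre1 at −1.45. KO_IgG replicate 4, at a macrophage sum of 1347 CPM, was among the controls there and in the KO arm of the knockout comparison. KO_IgG replicates 1 to 3 were at 7351 to 10546 CPM. For lymphocyte markers it was 4 of 5, 0 of 5 and 5 of 5, with medians of 0.58, −0.36 and 0.36, and the B cell gene Cd79a was at 0 in all libraries of every group but the isotype group. Only 5 of the 8 lymphocyte genes reached the mean of 5. The T cell genes Cd3e and Cd3d were at −1.59 and −1.06 in the knockout (limma adjusted p = 0.369 and 0.414). Ptprc was at −0.24 with anti-IL-38 (limma adjusted p = 0.502). The sum over this list had a median of 219 CPM with anti-IL-38 and 269 CPM in the isotype group, opposite to the 4 of 5 higher. For skeletal muscle it was 6 of 6, 6 of 6 and 6 of 6, with medians of 0.36, 2.07 and 1.31. Ckm, Acta1 and Myh4 were at 3.46, 2.26 and 2.87 in the knockout. For endothelial markers it was 5 of 5, 4 of 5 and 4 of 5, with medians of 0.21, 0.28 and 0.11. Cdh5 was at 0.33 in the pooled comparison, and Emcn and Pecam1 at 0.38 and 0.28 in the knockout. The part of these cell types in the luminal values was not tested.

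Covariation between members was followed over the 19 libraries of the larger table, as deviations of log2(normalized count + 1) from the group means, for 9 pairs with 100000 permutations within groups and values adjusted over the 9 pairs. Elf5 and Gata3 varied together (r = 0.87, rho = 0.78, permutation p = 0.00065 and 0.00099, adjusted 0.00585 and 0.00891), as did Krt8 and Krt18, the partners of 1 filament (r = 0.70, rho = 0.72, permutation p = 0.00513 and 0.00569, adjusted 0.0231 and 0.0256). Without the 2 libraries farthest from the median of the first gene, r was 0.76 for Elf5 and Gata3 (adjusted p = 0.0243) and 0.60 for the keratins (adjusted p = 0.0485). Esr1 and Pgr gave r = 0.59 (adjusted p = 0.0682) and did not pass. Epcam and Cdh1 gave r = 0.50 (adjusted p = 0.153), and 0.67 without the 2 farthest libraries (adjusted p = 0.0243). Foxa1 and Esr1 gave 0.39 (adjusted p = 0.269), which did not pass, and −0.050 without the 2 libraries farthest from the Foxa1 median. Gata3 and Foxa1 gave 0.21 (adjusted p = 0.489), and 0.58 without the 2 farthest (adjusted p = 0.0243). Krt18 with Krt19, Krt8 with Epcam and Elf5 with Pgr gave 0.61, 0.29 and 0.30, none of which passed.

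**Figure D5:**
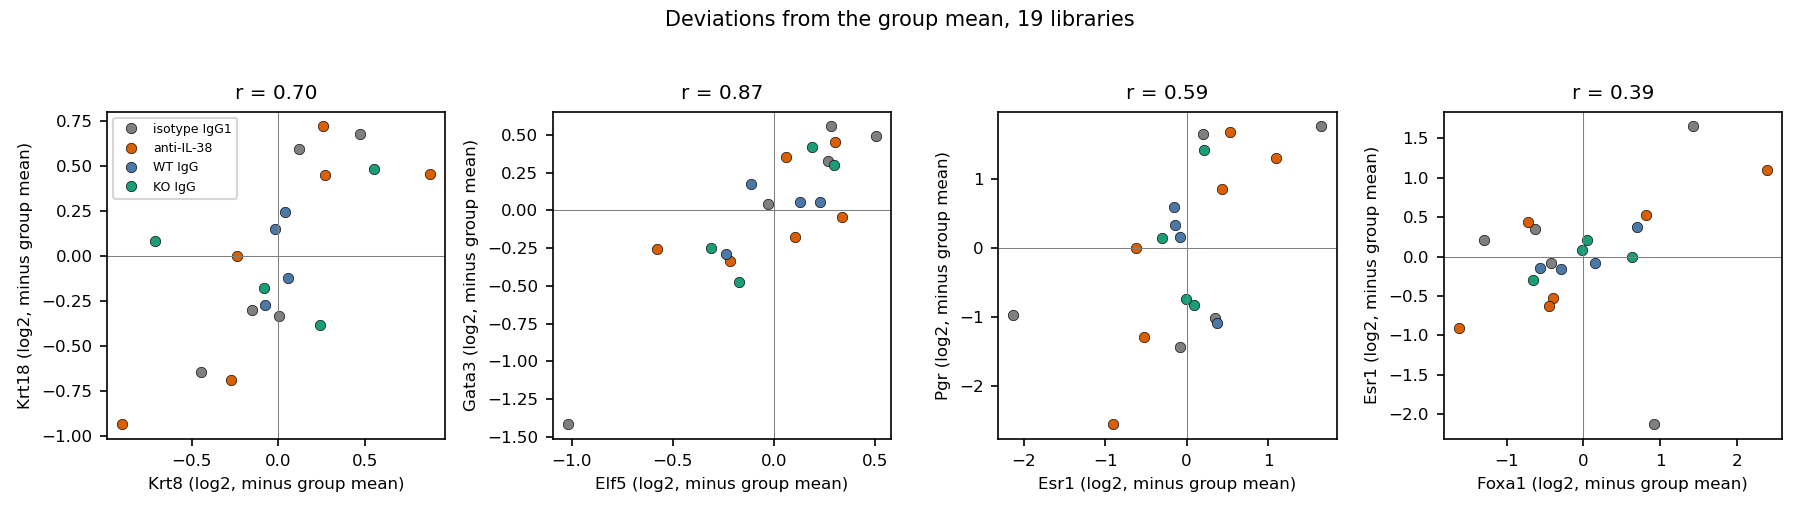
Deviation of log2(normalized count + 1) from the group mean for 4 pairs of luminal genes, with 1 point per library, color for the group, and both axes on the log2 scale, over the 19 libraries. Elf5 and Gata3 lie closest to a line, with r = 0.87.

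The genes most like each member over the same 19 libraries were named by Pearson's r on the same deviations among 13609 genes with a mean of at least 20 normalized counts, as a description over shared libraries. For Gata3 they were Ppm1k (r = 0.954), Mpped2 (r = 0.935), 9130008F23Rik (r = 0.935), and for Elf5 Slit3 (r = 0.907), Ralgds (r = 0.904), Synpo2 (r = 0.895). For Krt8 they were Rras (r = 0.886), Hebp2 (r = 0.861), Smagp (r = 0.846), for Krt18 Lyve1 (r = 0.915), Dusp16 (r = 0.908), Parva (r = 0.898) and for Krt19 Sprr1a (r = 0.890), Gnpnat1 (r = 0.881), Tuba8 (r = 0.879). For Epcam they were Bche (r = 0.878), Rer1 (r = 0.877), Slc18b1 (r = 0.870), and for Cdh1 Tnfrsf1a (r = 0.888), Ganab (r = 0.850), Tmem68 (r = 0.832). For Foxa1 they were Trim23 (r = 0.865), Dpysl3 (r = 0.854), Lmx1b (r = 0.853), for Esr1 Agtr1a (r = 0.913), Prag1 (r = 0.895), Slc52a3 (r = 0.892) and for Pgr Gm16485 (r = 0.915), Cyp3a57 (r = 0.911), Pcp4 (r = 0.884). Sprr1a, a gene of cornified epithelium, was the nearest to Krt19, and no member was among the 3 nearest genes of another.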

How the data were processed

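Tumors were dissociated, RNA was isolated with TRIzol, and 500 ng per library were used for QuantSeq 3′ mRNA libraries read in 75-cycle single reads. The authors used the QuantSeq pipeline of BlueBee Genomics, and the submitters' processing notes name STAR, HTSeq, DESeq2 and the build GRCm39 without tool versions. The deposited values are normalized counts, treated here as a signal scale, in 2 tables of 19 and 8 libraries that were normalized separately and share the 4 KO_IgG libraries. Whole reads were recovered from 100% of the values, within 0.0001%, and gave the library totals and the CPM values, which are reads scaled by these totals. The totals of 6273049 to 15879164 reads and the number of libraries limit the precision.

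For the main test, 1 was added to each normalized count, log2 was taken, and limma 3.58.1 (empirical Bayes with trend) was run in R 4.3.3 over genes with a mean of at least 5, with Benjamini-Hochberg adjustment at 0.05, using only the libraries of each comparison. Single genes were also tested by a two-sided exact permutation test of the libraries, which for the pooled comparison of 10 against 9 covered all 92378 groupings. Alternatives were edgeR 4.0.16 and DESeq2 1.42.0 on the recovered reads, other pseudocounts (0.5 and 5), filters and scalings, a replicate block, and each library left out. The fits were tested on simulated data. The members, the 12 gene lists and the tests were chosen with earlier results of these data known. The text names the members, the 3 genes most like each, and up to 3 genes of each list with the smallest p; other genes were chosen after their values were seen. Promoter windows are from RefSeq (GRCm38.p6), and no gene coordinates of GRCm39 were used.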

Additional observations from a re-analysis of the deposited data

Results flagged for a closer look

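Among 50 sets of 4 to 6 libraries, which are the 10 members in each of 5 groups, 3 held a library far from the others by Dixon's criterion, where chance gives about 1 in 20. The criterion was applied to normalized counts without log2, unlike the other tests. Cdh1 in isotype replicate 3 was at 15221 normalized counts, and the other 4 isotype libraries were at 8817 to 9730. Foxa1 in anti-IL-38 replicate 2 was at 691, and the other 5 at 41.8 to 231. This tumor also held the highest basal and myoepithelial sum of the study. Esr1 in WT_IgG replicate 1 was at 192, and the other 3 at 133 to 141.

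Esr1 also lay in opposite directions under the antibody and in the knockout: all 6 anti-IL-38 libraries lay above the mean log2 level of the isotype group, and all 4 KO_IgG libraries below that of the WT group. Isotype replicate 5, at 19.1 normalized counts, lowered the isotype mean. Without it, the anti-IL-38 difference was 0.56 instead of 1.09 on the log2 scale and 2 of 6 anti-IL-38 libraries lay below the mean. Of the 6, 5 lay above the median of all 5 isotype libraries. The difference of both effects was 1.67 on the log2 scale, with a limma adjusted p of 0.599 for the interaction, so that it did not pass the test.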

How the results depend on the processing

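Refitting the 10 members under the alternatives of each comparison gave 1190 values, of which 1167 kept their direction and their side of the threshold, 21 reversed and 2 passed the threshold newly, which were Krt19 in the knockout by DESeq2 and Krt18 with anti-γδTCR without KO_IgG replicate 4. limma, edgeR and DESeq2 disagreed on how many genes pass: DESeq2 called 75 genes for anti-IL-38, 305 for the knockout, with 1 member, 1036 for anti-γδTCR, 70 in the pooled comparison and 22 for the interaction, where limma called 0, 1, 0, 0 and 1. edgeR called 0 for the knockout, 1 in the pooled comparison and 0 for the interaction. With epithelial scaling limma called 3 genes for the knockout, with experiment as a term 1 in the pooled comparison, and with both myoepithelial-high anti-IL-38 tumors left out 1 for anti-IL-38 and 1 in the pooled comparison. The cause of these differences was not tested.

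Epithelial scaling reversed Cdh1 for anti-IL-38 (−0.11 on the log2 scale), Elf5 (−0.11) and Gata3 (−0.17) in the knockout, Cdh1 (−0.061) and Elf5 (−0.080) for anti-γδTCR, and Krt18 (−0.030), Krt19 (−0.076), Elf5 (−0.058) and Foxa1 (−0.028) in the pooled comparison. With both myoepithelial-high tumors left out, Foxa1 for anti-IL-38 was at −0.18, and in the pooled comparison Krt19 was at −0.30 and Foxa1 at −0.26. Leaving out each library in turn, genes called ranged from 0 to 6 for anti-IL-38, 0 to 7 for the knockout, 0 to 2357 for anti-γδTCR (highest without KO_IgG replicate 4), 0 to 23 in the pooled comparison (highest without isotype replicate 3) and 0 to 2 for the interaction, and members called from 0 to 1 for anti-γδTCR. The same runs gave Gata3 in the knockout −0.094 to 0.20, Krt8 and Elf5 for anti-γδTCR −0.083 to 0.46 and −0.028 to 0.20, Krt19 and Foxa1 in the pooled comparison −0.071 to 0.40 and −0.074 to 0.42, and Elf5 in the interaction −0.035 to 0.35. Without the 2 libraries farthest from the median, r was 0.67 for Epcam and Cdh1, 0.58 for Gata3 and Foxa1, and −0.050 for Foxa1 and Esr1.

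Deviations of same-numbered libraries gave r of −0.11 to 0.068 for anti-IL-38, 0.023 to 0.075 for the knockout and −0.17 to 0.025 for anti-γδTCR. Libraries of unlike number gave −0.14 to 0.21, −0.16 to 0.15 and −0.24 to 0.19. So few pairs cannot settle whether the numbers pair the samples, and the labels do not say. With the replicate block, limma called 1 gene for anti-IL-38, 0 for the knockout and 0 for the interaction, and no member.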

Other observations

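Csn2 had a wide spread in the isotype group, at 0.670 to 86.5 CPM, against 0 to 26.2 CPM with anti-IL-38.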
